A study of Drosophila melanogaster with 3 samples.

Results

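Of 30000 regions in the list called on the pooled replicates, 71 had their summit inside an annotated transposable element, and these 71 regions are described here. They were chosen by the position of the summit that the authors deposited, matched to the genes of biotype transposable element in Ensembl release 115 for the dm6 assembly. Regions came from chromatin immunoprecipitation followed by sequencing (ChIP-seq) with an antibody against green fluorescent protein (GFP). The chromatin was from whole Drosophila melanogaster prepupae of both sexes pooled, and their age is given as unknown. They came from a transgenic line that stably expresses CG7368, studied here as a transcription factor, with GFP at its C terminus. Every library carried this transgene, and the labels do not say whether the untagged gene is intact. The 3 biological replicates form a single group, and an experiment named as a possible control is not analysed here. Signal from a whole animal is an average over tissues, so a site used in few cells and a weak site in many cells cannot be told apart.

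Transposable elements are stretches of DNA that move or once moved within a genome. LTR retrotransposons such as roo and LINE-like retrotransposons such as jockey copy themselves through RNA, while DNA transposons with terminal inverted repeats (TIR), such as 1360, H, HB and Tc1-2, move as DNA. INE-1 is a short element of the Helitron class that makes no protein of its own and is present as many old, diverged copies in the fly genome. Old copies differ from each other in sequence, whereas young copies of a family are nearly identical, so that a short read from a young copy matches many places. Copies inside genes and near promoters can carry sequence that DNA-binding proteins recognise.

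The summit windows of the 6 element regions of highest pooled signal for which a sequence is shown are given first, since they show how little of some of these regions is element. Each window runs 50 bases either side of the summit on the plus strand of dm6, and capitals mark the bases annotated as element. The windows lie at Tc1-2{}2278 at chr3R:8239917-8240017, 1360{}3728 at chr3R:4215844-4215944, INE-1{}4982 at chr2L:4030588-4030688, INE-1{}5653 at chr3R:19114015-19114115, INE-1{}4807 at chrX:335090-335190 and jockey{}80 at chrX:7703118-7703218.
Tc1-2{}2278: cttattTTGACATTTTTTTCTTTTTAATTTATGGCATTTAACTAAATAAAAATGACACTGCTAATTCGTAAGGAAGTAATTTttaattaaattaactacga
1360{}3728: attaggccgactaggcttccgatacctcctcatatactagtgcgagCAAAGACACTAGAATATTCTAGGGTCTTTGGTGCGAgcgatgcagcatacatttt
INE-1{}4982: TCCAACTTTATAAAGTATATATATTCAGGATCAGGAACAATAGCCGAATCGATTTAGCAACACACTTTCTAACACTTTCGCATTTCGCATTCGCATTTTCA
INE-1{}5653: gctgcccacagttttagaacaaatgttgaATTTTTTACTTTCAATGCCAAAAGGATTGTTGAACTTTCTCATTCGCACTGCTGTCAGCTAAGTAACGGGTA
INE-1{}4807: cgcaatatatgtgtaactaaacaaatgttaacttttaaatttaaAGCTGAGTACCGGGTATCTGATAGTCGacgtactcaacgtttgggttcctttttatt
jockey{}80: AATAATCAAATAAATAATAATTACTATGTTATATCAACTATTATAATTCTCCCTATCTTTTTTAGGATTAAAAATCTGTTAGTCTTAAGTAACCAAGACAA
The annotated element made up only 27 bp around the summit of INE-1{}4807, 36 bp at 1360{}3728 and 76 bp at Tc1-2{}2278. The window of INE-1{}4982 and that of jockey{}80 lay wholly inside the element.

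A second set of windows is shown because 8 of the 30 INE-1 regions that could be placed on a reference INE-1 copy held the same 10 letters. These were ACTATCAGAT, within 25 bases of the summit. This was the word shared by the most of these 30 regions among all words of that length, with ties broken by alphabet, and it was chosen after the sequences were seen. The INE-1 regions that could not be placed were not searched. The 7 windows below are turned to the strand of a reference INE-1 copy, with the word in capitals, and lie at INE-1{}4807 at chrX:335115-335165 (minus strand), INE-1{}3492 at chr3R:30076263-30076313 (minus strand), INE-1{}6186 at chr2L:10033606-10033656 (minus strand), INE-1{}5917 at chr3L:21237917-21237967 (plus strand), INE-1{}4876 at chr3R:18295696-18295746 (plus strand), INE-1{}2239 at chr2L:21370290-21370340 (plus strand) and INE-1{}3413 at chr4:1090456-1090506 (minus strand). The reference copy, INE-1{}3859, is shown by its first 120 bases at chrX:22968804-22968923, with positions 26 to 75 in capitals.
INE-1{}4807: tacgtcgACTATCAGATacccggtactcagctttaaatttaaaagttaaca
INE-1{}3492: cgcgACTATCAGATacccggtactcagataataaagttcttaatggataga
INE-1{}6186: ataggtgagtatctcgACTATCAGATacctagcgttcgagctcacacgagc
INE-1{}5917: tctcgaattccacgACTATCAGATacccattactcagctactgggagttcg
INE-1{}4876: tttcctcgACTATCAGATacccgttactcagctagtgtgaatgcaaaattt
INE-1{}2239: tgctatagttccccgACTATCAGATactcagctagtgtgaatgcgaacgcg
INE-1{}3413: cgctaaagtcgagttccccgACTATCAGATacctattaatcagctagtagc
INE-1{}3859: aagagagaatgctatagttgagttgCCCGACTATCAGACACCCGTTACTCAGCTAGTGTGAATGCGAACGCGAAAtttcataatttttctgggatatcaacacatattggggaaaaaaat
The middle of the word lay a median of 6 bases from the summit in the regions that held it.

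The element regions sat slightly lower in the pooled list than regions in general. Their median pooled rank was 16896, with ranks from 1185 to 29936, against a median of 15000 over all 30000 regions. Their median pooled signal was 40.2 (range 25.1 to 278), against 44.4 over all regions (25.1 to 3148). The optimal list is named for a threshold on the irreproducible discovery rate, a measure of how well ranks agree between replicates. It held 11 of the 71 regions, or 15.5% (95% Wilson interval 8.88 to 25.7). These were the 11 of highest pooled signal, and the lowest signal of the optimal list was 104. Among the 71, retention thus followed pooled rank and was no separate check of each region. Over the whole pooled list 17.5% of regions were retained, which lies inside that interval. The highest element region was in place 1185. Element regions were only 0.237% of the pooled list, so at an even share few would lie above that place. The 11 retained regions had a median signal of 141 against 169 over the 5246 optimal regions.

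Recurrence between replicates was lower in elements. Of the 71 regions, 24 overlapped a region of all 3 replicate lists by at least 1 bp (33.8%, 23.9 to 45.4), 22 overlapped in 2 lists, 21 in 1 list and 4 in none. The share over all pooled regions was 52.2%, above that interval. Replicate 1 held 38 of the 71 regions (53.5%), replicate 2 held 50 (70.4%) and replicate 3 held 49 (69%). Over all pooled regions these shares were 72.4%, 79.7% and 78.2%, so replicate 1 was the lowest there too. Without replicate 1, 50.7% of the 71 were found in both other lists, against 65.7% of all pooled regions. Without replicate 2 the shares were 40.8% and 59.2%, and without replicate 3 they were 40.8% and 60.1%. When only the 5246 highest regions of each replicate were used, 9 of the 71 were found in all 3 (12.7%), against 13.7% of all pooled regions. Of these 9, 7 were in the optimal list. The others, INE-1{}4949 and jockey{}1450, are overlapped by a stronger pooled region, as described below. Neither share was corrected for such overlap. When a replicate summit had to lie within 100 bp of the pooled summit, 13 of 71 recurred in all 3 (18.3%, 11 to 28.8), against 30.6% of all. The pooled list was made from the same libraries, so part of any recurrence is built in, and the shares are given as a description with no test. They were not matched on rank, and the element regions ranked lower. The intervals treat the 71 regions as independent, though some share a copy or a neighbour.

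**Figure D1:**
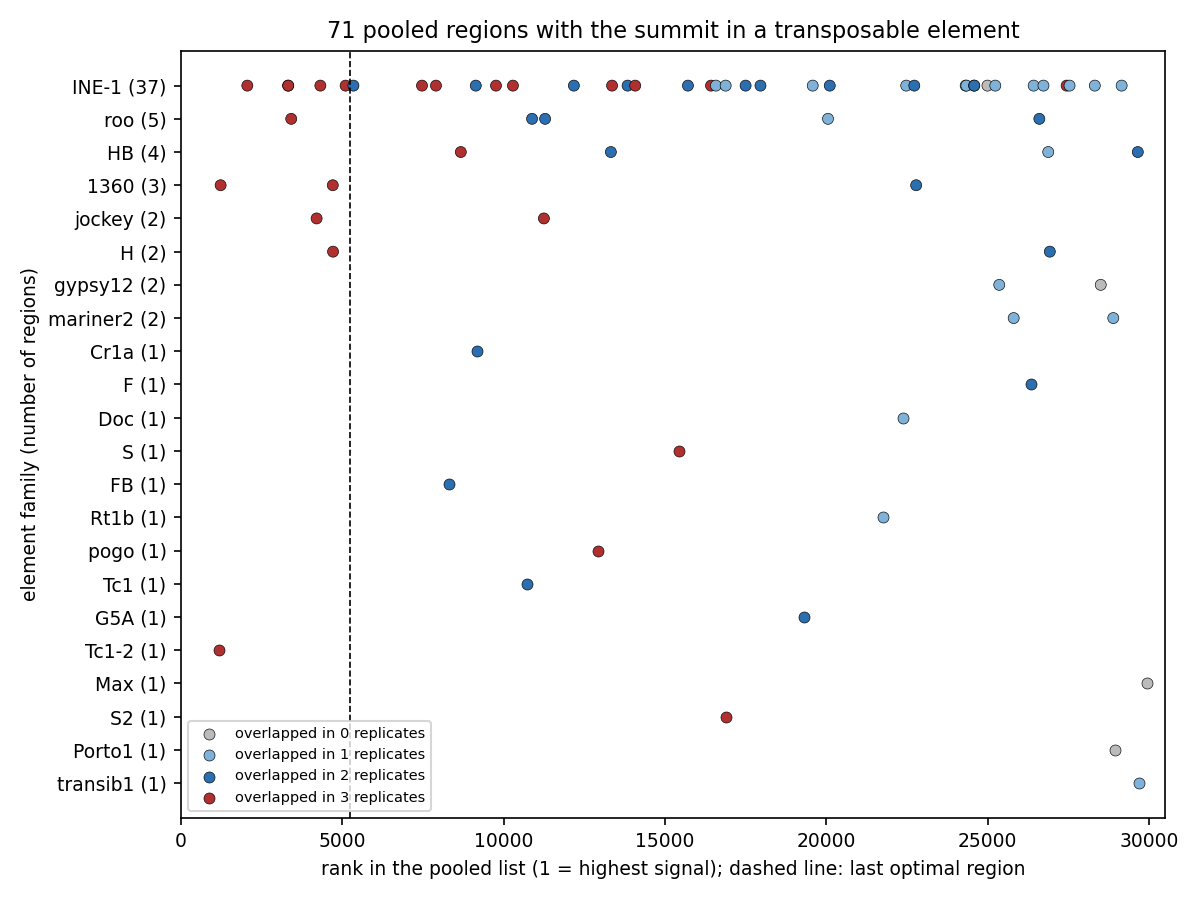
Rank of each of the 71 regions in the pooled list (x axis, 1 is the highest signal) by element family (y axis, number of regions in parentheses), coloured by the number of replicate lists that overlap the region. The 11 regions left of the dashed line, the end of the optimal list, were all overlapped in all 3 replicates.

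Each replicate list also had its own regions inside elements. Of 30000 regions, the lists of replicates 1, 2 and 3 had 119, 73 and 86 with the summit in an element, a mean of 92.7 ± 23.7 (SD, n = 3). Replicate 1 stood above the other replicates, yet only 32 of its 119 overlapped one of the 71 pooled regions, against 42 of 73 in replicate 2 and 36 of 86 in replicate 3. Among the 5246 highest regions the share inside elements was 0.191%, 0.21% and 0.21% for replicates 1, 2 and 3. Among the remaining 24754 regions it was 0.44%, 0.25% and 0.303%. The highest regions thus had the lower share in 3 of 3 replicates, with a mean difference of -0.128 ± 0.109 percentage points (SD, n = 3). The exact sign-flip permutation test, two-sided, gave p = 0.25, the smallest that 3 replicates allow, so the difference could not pass a threshold of 0.05.

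By family, INE-1 held 37 of the 71 regions (52.1%), in 37 different copies, and 5 of the 11 retained ones. INE-1 also makes up 38.5% of the 5809 annotated elements on the 6 chromosome arms in the lists, but only 0.55 Mb of the 7.94 Mb that elements cover. Its regions had a median pooled rank of 16880, and 13 of them were found in all 3 replicates. The TIR DNA transposons held 17 regions in 16 copies with 4 retained, and their median rank was 15432. Per copy, 1.66% of INE-1 copies and 1.75% of TIR copies held a region, against 1.15% of all elements. LTR retrotransposons, with 5.31 Mb the class that covers the most sequence, held 8 regions and 1 retained. The retained region and 4 of these 8 in all lay in the single copy roo{}850, described below, whose sequence was unlike other roo copies. No LTR region outside that copy was retained. LINE-like retrotransposons held 8 regions over 2.11 Mb, also with 1 retained, and the foldback element FB held 1 region, at place 8290, that was not retained.

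Within these classes the families with more than 1 region besides INE-1 were roo with 5 regions, HB with 4, 1360 with 3, and jockey, H, gypsy12 and mariner2 with 2 each. 1360, a TIR transposon of which many partial copies sit in fly heterochromatin, had 2 of its 3 regions retained, at places 1223 and 4700, and the third was at place 22786. The 4 HB regions lay between places 8669 and 29657 with none retained, and the mariner2 and gypsy12 regions lay between places 25362 and 28897. A further 14 families had 1 region each, of which Tc1-2 had the highest-ranked region of all. The remaining 112 of 134 named families had none.

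Families differed in how much of their sequence is unique. Picked after their values were seen, 412 with 44 copies, mdg1 with 44, opus with 40 and copia with 39 had no region, and between 2.56% and 8.5% of their 50-base words (50-mers) occur once in the assembly. For INE-1 that share was 90.6%, for HB 71.5%, for 1360 37.9% and for roo 4.64%. Regions did not follow this share throughout: gypsy8 had 56 copies, 84.6% of 50-mers unique and no region, whereas pogo had 3.64% unique and 1 region, and roo and jockey, at 4.64% and 11.9%, had 5 and 2. All but 1 of the roo regions, however, lay in the single copy roo{}850, described below. Of its 50-mers 100% were unique, and only 4.69% of its bases aligned to other roo copies, so the roo count says little about repeated roo sequence. The part of sequence uniqueness in these counts was not tested.

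**Figure D2:**
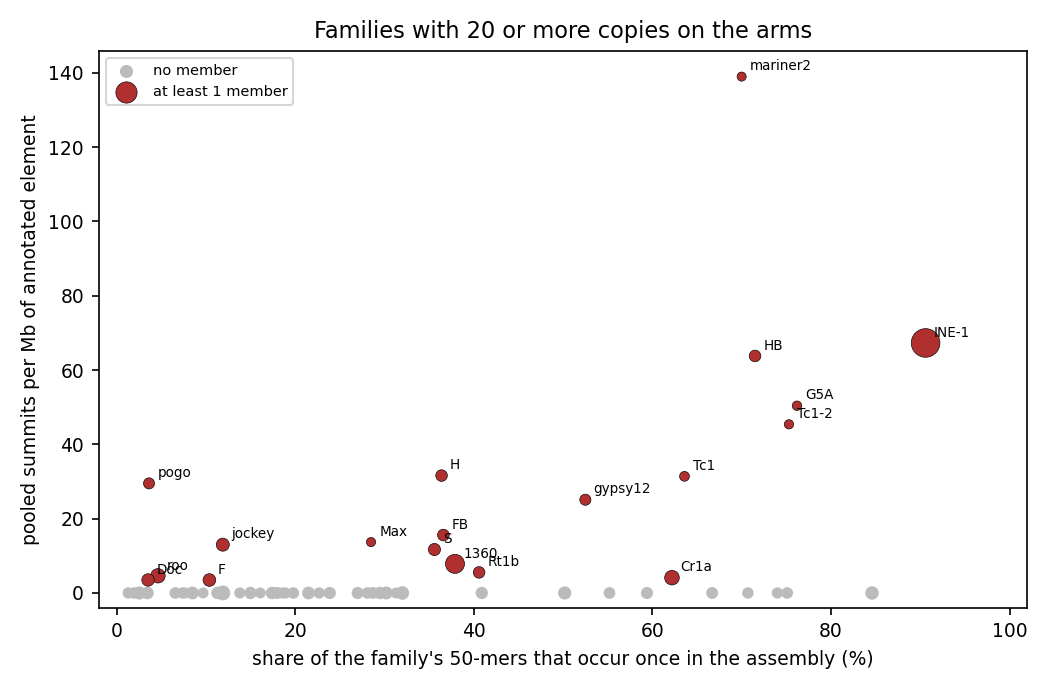
Pooled summits per Mb of annotated element (y axis) against the share of a family's 50-mers that occur once in the assembly (x axis, %), for families with 20 or more copies on the arms, with point area growing with the number of copies. INE-1 lies at 90.6% and 67.3 summits per Mb, roo at 4.64% and 4.63, and 43 of the 62 families have no region. Most of the roo summits lie in the copy roo{}850, whose own 50-mers are 100% unique.

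Most of the summits themselves lay in unique sequence. All 50-mers over the summit occurred once in the assembly at 61 of the 71 regions, while only 25.6% of element sequence on the arms is unique in that sense, against 92.4% outside elements. Fewer than 50% of the 50-mers were unique at 3 regions. At jockey{}80 none was unique and the median 50-mer occurred in 6 places, at jockey{}1450 18% were unique with a median of 68 places, and at roo{}1429 none was unique with a median of 255 places. The region in jockey{}80 was nevertheless in the optimal list, at place 4199. For a region in repeated sequence the copy from which the reads came cannot be told apart from the other copies.

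Counted per base, elements held far fewer summits than the rest of the arms. Elements cover 5.93% of the arms and held 0.237% of the pooled summits, which is 8.94 summits per Mb against 238 outside. In unique sequence alone the density was 33.4 per Mb inside and 257 per Mb outside, a ratio of 0.13. In the replicate lists that ratio was 0.222, 0.134 and 0.151 for replicates 1, 2 and 3, a mean of 0.169 ± 0.0467 (SD, n = 3), below 1 in 3 of 3 replicates. The exact sign-flip permutation test on its log2, two-sided, gave p = 0.25, the smallest possible with 3 replicates. Of the element regions 19.7%, and of all pooled regions 1.87%, lay in windows of 1 Mb with at least 20% of their bases in elements. With the summits of each 1 Mb window spread evenly over its unique bases, 217 would lie in unique element sequence where 68 did, a ratio of 0.313 in place of 0.13.

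In the replicate lists summit density was in general higher farther from an element. In unique sequence more than 50 bp inside an element it was 31.6 ± 15.5 summits per Mb (SD, n = 3 replicates), and in the outer 50 bp of elements 98.2 ± 16.3. The first 50 bp outside had 95.4 ± 9.48 per Mb, and sequence more than 2000 bp from any element 263 ± 0.372. In the optimal list the rise was not steady, with 21.1 per Mb at 1 to 50 bp outside, 7.8 at 51 to 100 bp and 46.7 beyond 2000 bp. The first 2 of these values rest on 9 and 3 summits. Zones were not compared within 1 Mb windows, so distance from an element cannot be told apart from the part of the arm. Elements under 100 bp, 1162 of the 5809, have no sequence more than 50 bp from their edge. Depth inside an element therefore cannot be told apart from element length. The step at the element edge itself, between 98.2 and 95.4 per Mb, was smaller than the spread between replicates. The choice of regions by summit position has a margin of the same kind: 8 of the 71 summits lay within 10 bp of the edge of their element, 3 of them retained, and another 6 pooled summits lay 1 to 10 bp outside an element, 1 of them retained.

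**Figure D3:**
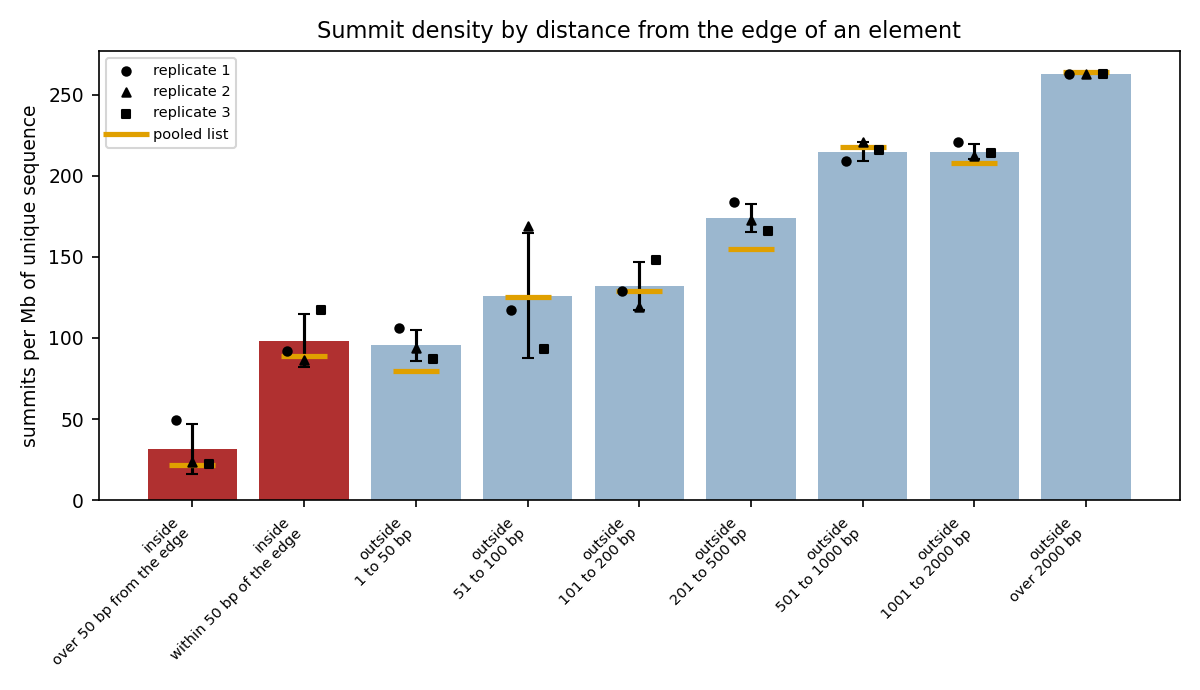
Summits per Mb of unique sequence (y axis) in zones by distance from the nearest element edge (x axis), with elements in red. Bars are means over the 3 replicate lists with SD, points are single replicates and the yellow marks are the pooled list. Density is lowest deep inside elements, at 31.6, similar on both sides of the edge, and 263 more than 2000 bp away.

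Much of many regions was therefore not element. The regions were 416 bp wide, and the element covered a median of 59.6% of the width (range 6.49 to 100%). In 26 of 71 it covered under 50%, and of the 11 retained regions 7 were of this kind. The elements with a region had a median length of 263 bp, against 366 bp over all elements on the arms, and those of the retained regions 126 bp. Among the retained regions only those in roo{}850 and H{}1612 were covered whole.

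The strongest element region lay at Tc1-2{}2278 (FBti0060339), a 76 bp remnant in an intron of Ada2b, a subunit of the SAGA histone acetyltransferase complex. Its summit was 548 bp from a transcription start site (TSS) of Ada2b. The region, chr3R:8239759-8240174, had a pooled signal of 278 and rank 1185, and ranked 1153, 1488 and 1272 in replicates 1, 2 and 3. The next was a 36 bp fragment, 1360{}3728 (FBti0061789), with the summit 580 bp from a TSS of CG14636. It lay in an intron of aux, the fly auxilin that helps to uncoat clathrin vesicles. It ranked 1223 in the pool and 971, 1202 and 1590 in the replicates. By overlap, neither fell below rank 1590 in any list. The replicate 2 region at Tc1-2{}2278 had no summit within 100 bp of the pooled one, however, so the rank of 1488 is that of an overlapping region whose summit lies farther away.

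Of the INE-1 regions the highest was at INE-1{}4982 (FBti0063043) on arm 2L, 739 bp from a TSS of ed, which encodes the cell adhesion protein Echinoid. Its pooled rank was 2051, and it ranked 2157, 1624 and 3097 in the replicates. INE-1{}5653 in an intron of CG6040 ranked 3315 in the pool and 3546, 4543 and 3560 in the replicates. INE-1{}4807, only 27 bp long and 339 bp from a TSS of CG32816, ranked 3320, and 3731, 3529 and 4719 in the replicates. All 3 were inside the first 5246 places of every list. INE-1{}5717 lay 178 bp from a TSS of modSP, a serine protease that acts upstream of Toll in immune signalling, with pooled rank 4315 and replicate ranks 5088, 5044 and 3712. The last INE-1 copy in the optimal list was INE-1{}3492 in an intron of sima, the fly HIF-1 alpha, with pooled rank 5098 and replicate ranks 6530, 6858 and 5118.

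Other retained regions were less even between replicates. The one in jockey{}80 (FBti0019599), in an intron of the forkhead gene CHES-1-like, ranked 4199 in the pool, with 3015 and 3046 in replicates 1 and 2 but 9153 in replicate 3. 1360{}5066 in ATP8A, a phospholipid flippase gene, had pooled rank 4700, and ranked 4102 and 5102 in replicates 2 and 3 but 14775 in replicate 1. Its summit lay 592 bp from the TSS of tRNA:Ile-AAT-1-8. H{}1612, a 2675 bp TIR element 43220 bp from the nearest annotated TSS, ranked 4708 in the pool and 4057, 7427 and 4869 in the replicates. In each of these regions 1 replicate placed it outside its 5246 highest, and 7 of the 11 retained regions were within that number in all 3. All 11 overlapped a region of every replicate, as did 98.2% of optimal regions in general. With a summit required within 100 bp, 9 of the 11 (81.8%) were found in all 3, against 88.6% of optimal regions, the exceptions being Tc1-2{}2278 in replicate 2 and 1360{}5066 in replicate 1.

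**Figure D4:**
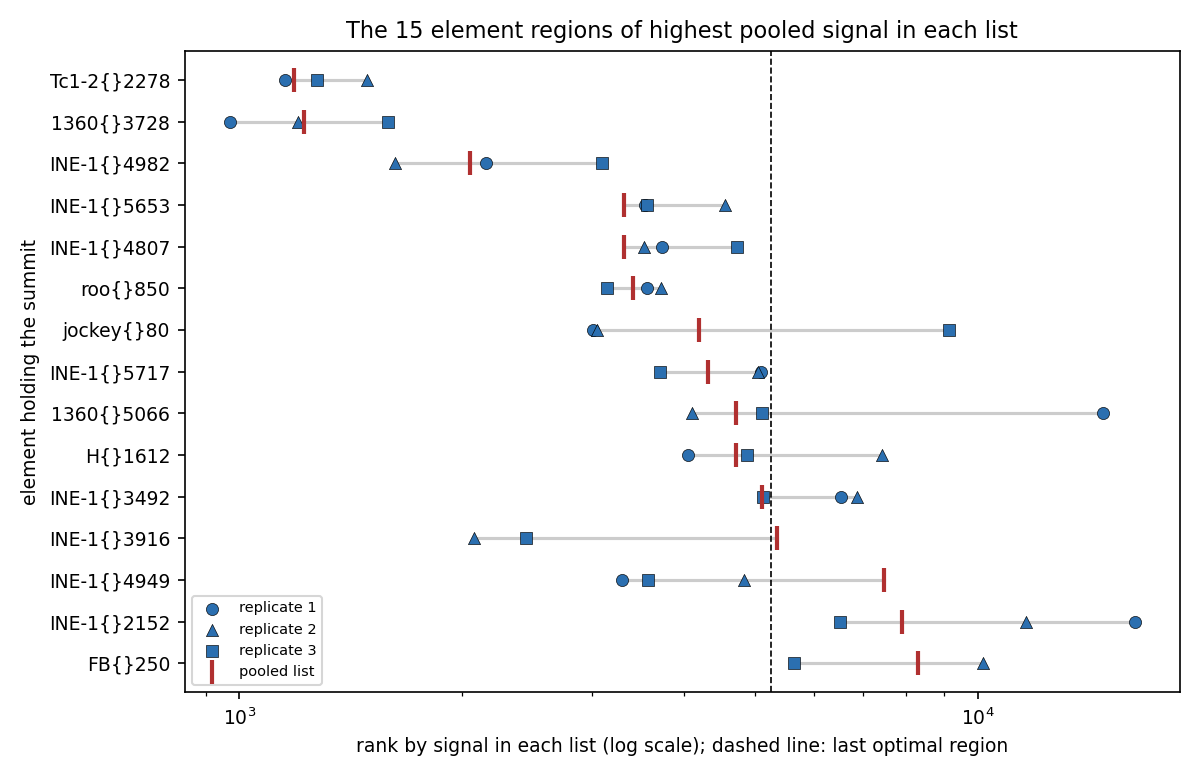
Ranks by signal (x axis, log scale) of the 15 element regions of highest pooled signal in the pooled list (red bar) and in replicates 1, 2 and 3 (circle, triangle, square), with no symbol where a replicate has no overlapping region. The 2 regions at the top stay between ranks 971 and 1590, while 1360{}5066 spans 4102 to 14775.

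Just inside the end of the optimal list stood INE-1{}3492 with a signal of 106, and just outside stood INE-1{}3916 with 103, 212 bp from a TSS of CG33229. INE-1{}3916 had pooled rank 5340 and was absent from replicate 1, yet overlapped regions of ranks 2076 and 2443 in replicates 2 and 3. The replicate 3 summit within 100 bp of it ranked 8877. Next came INE-1{}4949 in an intron of Ccdc85, with a signal of 79.3 and rank 7466. It ranked 3298, 4827 and 3580 in the replicates, but its region is overlapped by a pooled region of rank 4129 whose summit lies 351 bp away. With summits within 100 bp its ranks were 15342 and 4827 in replicates 1 and 2, with none in replicate 3. INE-1{}2152, 262 bp from a TSS of CG7458, ranked 7899, and FB{}250 in l(1)G0196 ranked 8290 with no region in replicate 1.

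Overlap by 1 bp gave some element regions the rank of a stronger neighbour. A pooled region of higher signal overlapped 7 of the 71 (9.86%), none of them retained. Such overlap was not particular to elements: with overlapping regions merged to the strongest, 25699 of all 30000 pooled regions remained, and 64 of the 71. The clearest case was jockey{}1450, 281 bp from a TSS of Cnx99A, the gene of the chaperone calnexin, which had pooled rank 11245 but replicate ranks of 1156, 1184 and 1748. A pooled region of rank 1176 had its summit 199 bp away, and with replicate summits required within 100 bp the ranks of jockey{}1450 became 5148, 24351 and 19013.

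A single annotated copy, roo{}850 (FBti0019996) at chr2R:17818916-17827837, held 4 of the 5 roo regions, all within grh, the epidermal transcription factor gene grainy head. Its highest region ranked 3412 in the pool and 3570, 3727 and 3146 in the replicates, and the other three ranked 10878, 11283 and 20053. The last of these lay 16 bp from a TSS of grh. The sequence of the annotated 8922 bp was unlike roo. All of its 50-mers occurred once in the assembly, and 4.69% of its bases aligned to other roo copies, the longest alignment being 92 bp. The other 66 elements with a region aligned over 27.9% to 100% of their length, and 63 of the 67 over at least 50%. Without this copy 67 regions remained, 10 of them retained, and the share found in all 3 replicates was 34.3%.

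Along the INE-1 element the summits were uneven. INE-1 copies were aligned to the reference copy INE-1{}3859, 572 bp long, and 30 of the 37 INE-1 summits could be placed on it. Positions 26 to 75, the capitals of the printed reference copy, held 11 of the 30 (36.7%), while 11.8% of all bases of 2229 aligned INE-1 copies fall there. The replicate lists' own INE-1 summits gave 28.9% (11 of 38), 27.8% (10 of 36) and 34.4% (11 of 32), a mean of 30.4% ± 3.54 (SD, n = 3), above 11.8% in 3 of 3 replicates. The segment was picked after the pooled summits were seen, and the replicate lists share their libraries with the pooled list, so no test is given. Over copies of at least 100 bp alone the pooled share was 22.7% (5 of 22) against 9.63% of aligned bases. Among the 5 retained INE-1 regions, INE-1{}4807 lay at position 48, INE-1{}3492 at 51, INE-1{}5717 at 78 and INE-1{}4982 at 444, and INE-1{}5653 could not be placed.

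**Figure D5:**
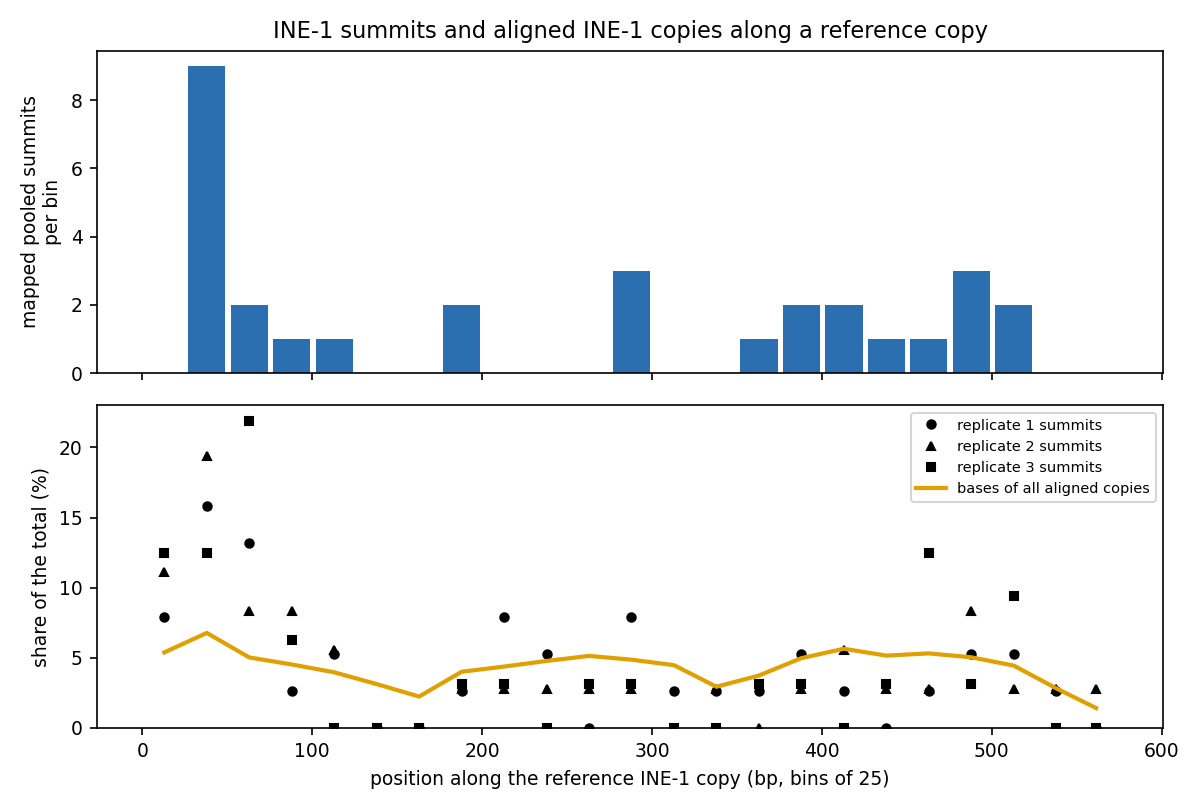
Position of INE-1 summits along the reference INE-1 copy (x axis, bp, bins of 25): number of the 30 placed pooled summits (upper panel) and, in percent of the total, the summits of each replicate list (symbols) with the bases of all aligned INE-1 copies (yellow line, lower panel). Bin 26 to 50 has 9 pooled summits.

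The shared word was rarely near a summit. It occurred 567 times inside INE-1 copies on the arms, counting both strands, and 13 of these matches (2.29%) lay within 50 bp of a pooled summit, whereas 0.668% of all INE-1 bases did. Outside INE-1 there were 519 matches, and 1.73% lay within 50 bp of a pooled summit, against 2.26% of all bases on the arms. For optimal summits the order was the other way, with 4 of the 519 matches (0.771%) against 0.396% of all bases, and inside INE-1 it was 3 of 567 (0.529%) against 0.104%. Within 50 bp of the summit, 10 of the 71 element regions (14.1%) and 21 of all 30000 (0.07%) held the word. The word was picked from the INE-1 regions among these 71, so the higher shares among them and inside INE-1 are in part built in and test nothing. These are matches of letters, and nothing is drawn from them about binding.

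The 51 bases around the summit were a median 62.7% A and T in the 71 regions, 58.8% over all pooled regions, 68.6% in the 11 retained and 66.7% over the optimal list. Of the 71 regions 12.7% held TATAAA within 50 bp of the summit on either strand, as for the words that follow, against 13.7% of all pooled regions. TAATTA was held by 7.04% against 6.18%, GAGAG by 15.5% against 14.3%, and AAAAAAA by 18.3% against 12.3%. Words may overlap each other.

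By position in the gene map, 32 of the 71 summits lay in introns (45.1%), 28 between genes (39.4%) and 10 within 500 bp of a TSS (14.1%), and 1 lay in a noncoding exon. Over all pooled regions the shares were 46.4%, 24.2% and 24.3% for the first 3 classes. The intervals for the 71 were 34 to 56.6%, 28.9 to 51.1% and 7.83 to 24%. The intergenic share of all pooled regions thus lay below its interval and the share near a TSS just above, with no test made. No summit lay in a coding exon or a UTR. These held 1.87% and 2.02% of all pooled regions, inside the interval of 0 to 5.13% for the 71. With so few to be found at those shares, the absence cannot show whether there is a difference. Of the retained regions 7 were intronic, 2 were near a TSS and 2 were intergenic. Arm 2L held 17 of the regions, 3R 16, 2R and X 13 each and 3L 10. Chromosome 4 had 2 regions, but with only 69 pooled regions there these were 2.9% of its list, against 0.151% to 0.305% on the other arms. Counted per element the order turned, since 2 of its 566 elements held a region (0.353%), against 0.673% to 2.19% on the other arms.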

How the data were processed

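Regions, summits, signal and −log10 q-values are those the authors deposited for the pooled list, the optimal list and the 3 replicate lists in dm6 coordinates. No source used here gives the formula of the signal. The −log10 q-values deposited by the authors were not compared. The peak caller, the aligner, the treatment of reads matching several places and the number of reads are stated in no source used here. Depth is therefore unknown, and regions are ranked only within 1 list. Chromatin was sheared by sonication to 200 to 800 bp, per the labels. Starts were made 1-based, and where elements were nested the shortest was taken. Elements and genes came from Ensembl release 115, whose assembly is that of the lists, and sequences from RefSeq's dm6. A 50-mer was called unique if it occurs once in the assembly on both strands. Element copies were aligned with blastn 2.17.0. The INE-1 reference was the copy of 500 to 1000 bp with the most aligned bases from other copies. Families named are the 10 with the most regions, which ties limited to 8, and those with a retained region. Regions named are the 15 highest and those at the end of the optimal list. Named outside these rules, after their values were seen, are jockey{}1450, roo{}1429, the lower roo{}850 regions and the families 412, mdg1, opus, copia, gypsy8 and pogo. Assignment and overlap code was tested on simulated data. Analyses used Python 3.11.15, numpy 2.4.6, pandas 2.3.3 and scipy 1.17.1. Intervals are Wilson intervals at 95% and cover counting error only. Alternatives were other definitions of element and overlap, stricter lists and leaving out replicates. Members, lists and words were chosen with earlier results of these data known.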

Additional observations from a re-analysis of the deposited data

How the results depend on the processing

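The number of element regions was 45 when an element had to cover at least 50% of the region and 21 for elements of at least 500 bp. The retained share was then 8.89% and 9.52%, further below the 17.5% of all regions but within the counting interval of the 15.5%. With the longer elements, 9.52% were found in all 3 replicates. INE-1 held 42.2% of the regions that an element covered by at least 50%, against 52.1% of the 71 and 38.5% of annotated elements. With only the upper 50% of the optimal list by signal, 4.23% of element regions were retained, against 8.74% of all regions. The share found in all 3 replicates was 18.3% with summits within 100 bp and 12.7% for the highest regions of each replicate. Leaving out 1 replicate in turn gave 40.8% to 50.7% found in both others, the highest without replicate 1, against 59.2% to 65.7% of all regions, and mean differences between the highest and the other regions of -0.172 to -0.067 percentage points, negative each time. The placed share of INE-1 summits in the segment was 41.2% on a second reference copy and 22.7% for copies of at least 100 bp. The density ratio in unique sequence was 0.313 with summits spread within 1 Mb windows, against 0.13. With the 1000 highest regions of each replicate the mean difference was -0.285 percentage points, against -0.128 with the 5246 highest. Other alternatives, among them the RefSeq annotation with 71 regions and 36-mers with a density ratio of 0.138, stayed within the limit set for each result. That limit was an error for most results, but a fold change for the number of regions. For the difference between the highest and the other regions it was the sign alone. The cause of these shifts was not tested. The alternatives without roo{}850, with 36-mers or 1 Mb windows, and those for INE-1 were added after the data were seen. No paired analysis was possible because the 3 replicates form a single group. The unknown depth of the lists limits what absence from a replicate shows.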
